A study of Mus musculus with 6 samples.

Results

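The genes described here are those of J chain, the immunoglobulin constant chains, 2 endoplasmic reticulum proteins of antibody-secreting cells, and the epithelial receptor that carries polymeric immunoglobulin. The rule names 8 symbols: Jchain, Pigr, Mzb1, Igkc, Igha, Ighm, Ighg2b and Derl3. Jchain, Pigr and Mzb1 are listed in both deposited FPKM tables, Derl3 is listed in the second table alone, and Igkc, Igha, Ighm and Ighg2b are listed in neither, out of 13726 genes listed in either table. No gene of an immunoglobulin biotype is listed in either table, so heavy and light chain transcripts were not analysed here. Igkc encodes the kappa light chain constant region (chromosome 6, 70726435 to 70726966, plus strand). Igha (113254830 to 113260236), Ighg2b (113302965 to 113307933) and Ighm (113418558 to 113422730), all on the minus strand of chromosome 12, encode the constant regions of IgA, IgG2b and IgM (GENCODE M21, GRCm38). The members were selected on the difference between the 24M and 2M libraries of the first table, with the levels in the second table also known. Their differences with age are therefore given as a description, with no test.

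The study sequenced total RNA from kidney of WT mice aged 24M, with 4 libraries, and 2M, with 2, to ask which transcripts change in natural kidney aging. The first table holds 24M_1, 24M_2, 2M_1 and 2M_2, and the second, made separately, holds 24M_3 and 24M_4. Strain, sex and the number of animals are not given in the labels. Because nothing says that libraries came from separate animals, p-values measure the spread between these libraries, which may be technical.

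Polymeric IgA is assembled in plasma cells, where the J chain joins immunoglobulin monomers through their tail pieces. The product of Pigr, the polymeric immunoglobulin receptor, binds J chain-containing IgA and IgM at the basolateral face of epithelial cells, carries them across, and is cleaved to release them at the apical face with secretory component attached. In kidney the receptor is made by tubular epithelium, and secretory IgA is found in urine. Mzb1 encodes a chaperone-like protein that helps antibody assembly and secretion in B lineage cells, and Derl3 encodes a derlin of the pathway that removes misfolded proteins from the endoplasmic reticulum.

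The promoters are shown because the members are known from different cells, plasma cells for Jchain and Derl3 and epithelium for Pigr. The promoters were searched for 4 short motifs known from B cells, the unfolded protein response and the Pigr gene. Each window runs 5′ to 3′ on the gene's own strand from 250 bases before the RefSeq start to 50 after (GRCm38.p6), and capitals mark the motifs found. The windows are chr5:88527848-88528147 on the minus strand for Jchain, chr1:130826434-130826733 on the plus strand for Pigr and chr10:75893148-75893447 on the plus strand for Derl3.
Jchain: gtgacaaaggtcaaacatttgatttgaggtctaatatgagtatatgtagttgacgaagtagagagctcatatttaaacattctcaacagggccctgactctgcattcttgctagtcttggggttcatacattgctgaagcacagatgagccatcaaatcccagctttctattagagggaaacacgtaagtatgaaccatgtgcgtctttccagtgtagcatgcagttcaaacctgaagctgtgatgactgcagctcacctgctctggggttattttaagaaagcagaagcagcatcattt
Pigr: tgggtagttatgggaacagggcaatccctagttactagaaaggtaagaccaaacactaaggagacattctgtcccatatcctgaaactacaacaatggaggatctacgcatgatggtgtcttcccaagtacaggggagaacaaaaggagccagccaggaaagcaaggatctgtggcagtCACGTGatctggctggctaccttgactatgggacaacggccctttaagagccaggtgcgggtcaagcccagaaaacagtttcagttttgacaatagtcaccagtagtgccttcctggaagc
Derl3: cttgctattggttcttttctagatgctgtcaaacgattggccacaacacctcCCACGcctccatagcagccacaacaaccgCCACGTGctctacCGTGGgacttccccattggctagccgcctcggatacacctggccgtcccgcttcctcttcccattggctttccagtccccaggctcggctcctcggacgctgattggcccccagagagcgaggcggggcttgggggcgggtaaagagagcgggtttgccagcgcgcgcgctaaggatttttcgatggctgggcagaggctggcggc

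Searched on both strands, the octamer ATGCAAAT was in 1.74% of 32851 promoter windows of this length, the unfolded protein response element core TGACGTGG in 0.676%, CCACG, the conserved end of the endoplasmic reticulum stress element, in 32.8%, and the E-box CACGTG in 7.15%. Pigr held 1 E-box, from -71 to -66 relative to the start. Derl3 held CCACG at 3 places, with first and last bases at -198 and -194, at -169 and -165, and on the minus strand at -156 and -152 from the start, and 1 E-box from -168 to -163 that overlaps the second of them. None of the 4 motifs was found in the Jchain window. A match describes letters in the window and does not show a bound site.

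Jchain (ENSMUSG00000067149, chromosome 5, 88519809 to 88527891, minus strand) was at 16.7 FPKM in 24M_1 and 12.3 FPKM in 24M_2, against 0.757 FPKM in 2M_1 and 1.17 FPKM in 2M_2. The groups did not overlap, and the lower 24M library stood 10.5 times above the higher 2M library. The means were 14.5 ± 3.13 FPKM in 24M and 0.963 ± 0.291 FPKM in 2M (SD, n = 2 each), a ratio of 15.0. Jchain was far higher in the second table, at 179 FPKM in 24M_3 and 59.5 FPKM in 24M_4, 186 and 61.8 times the 2M mean of the first table. Levels set across the tables compare values that were normalized separately. The position of Jchain among all genes of its own library does not need a common scale, but it depends on which genes are listed. The first table lists 12666 genes and the second 13606, so the shares compare directly only within a table. Of the listed genes, 77.4% lay below Jchain in 24M_1, 70.7% in 24M_2, 98.5% in 24M_3 and 93.8% in 24M_4, against 6.46% in 2M_1 and 13.1% in 2M_2. Jchain was thus among the lowest listed genes in both 2M libraries and in the upper part in all 4 24M libraries. In a bulk sample, more cells of a type and more RNA per cell cannot be told apart.

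Mzb1 (ENSMUSG00000024353, chromosome 18, 35647267 to 35649367, minus strand) was at 0.654 FPKM in 24M_1 and 1.33 FPKM in 24M_2, against 0.448 FPKM in 2M_1 and 0.552 FPKM in 2M_2. The libraries of the first table did not overlap by age, but the gap was small: the lower 24M library was 1.18 times the higher 2M library. The means were 0.992 ± 0.478 FPKM in 24M and 0.500 ± 0.0738 FPKM in 2M (SD, n = 2 each), a ratio of 1.98. In the second table Mzb1 was at 11.3 FPKM in 24M_3 and 4.62 FPKM in 24M_4, where 70.5% and 50.2% of the listed genes lay below it. In the first table that share, over its own listed genes, was 6.91% in 24M_1 and 16.2% in 24M_2, against 1.60% in 2M_1 and 3.42% in 2M_2. Derl3 (ENSMUSG00000009092, chromosome 10, 75893413 to 75895941, plus strand) was at 0.664 FPKM in 24M_3 and 0.108 FPKM in 24M_4. It is not listed in the first table, where the larger of the age means is at least 0.501 FPKM for every gene, so it cannot be compared between ages.

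Jchain and Mzb1 did not move in proportion. Jchain over Mzb1, both in FPKM and so per length, was 25.5 in 24M_1 and 9.23 in 24M_2, against 1.69 in 2M_1 and 2.12 in 2M_2. It was 15.8 in 24M_3 and 12.9 in 24M_4 of the second table. All 4 ratios in 24M thus lay above both ratios in 2M, and within 24M the ratio differed most between the libraries of the first table. Both transcripts were near the lower end of the listed values in 2M, so the 2M ratios rest on low values of unknown depth. Mzb1 was also low in 24M_1 and 24M_2, at 0.654 and 1.33 FPKM. The ratios in 24M_1 and 24M_2, and the gap between them, thus rest on low Mzb1 values too.

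Pigr (ENSMUSG00000026417, chromosome 1, 130826684 to 130852249, plus strand) was at 94.6 FPKM in 24M_1 and 98.3 FPKM in 24M_2, against 55.1 FPKM in 2M_1 and 40.8 FPKM in 2M_2. The ages did not overlap, with the lower 24M library 1.72 times the higher 2M library. The means were 96.4 ± 2.67 FPKM in 24M and 47.9 ± 10.1 FPKM in 2M (SD, n = 2 each), a ratio of 2.01. In the second table Pigr was at 585 FPKM in 24M_3 and 104 FPKM in 24M_4, so 24M_4 lay close to 24M_1 and 24M_2 while 24M_3 stood far above all other libraries. Pigr was an abundant transcript at both ages, with 96.3% and 96.5% of listed genes below it in 24M_1 and 24M_2, against 93.3% and 90.8% in 2M_1 and 2M_2. The receptor outnumbered its cargo's J chain per length in every library, but by less in 24M: Pigr over Jchain was 5.67 in 24M_1, 8.02 in 24M_2, 3.26 in 24M_3 and 1.76 in 24M_4, against 72.8 in 2M_1 and 34.9 in 2M_2.

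**Figure D1:**
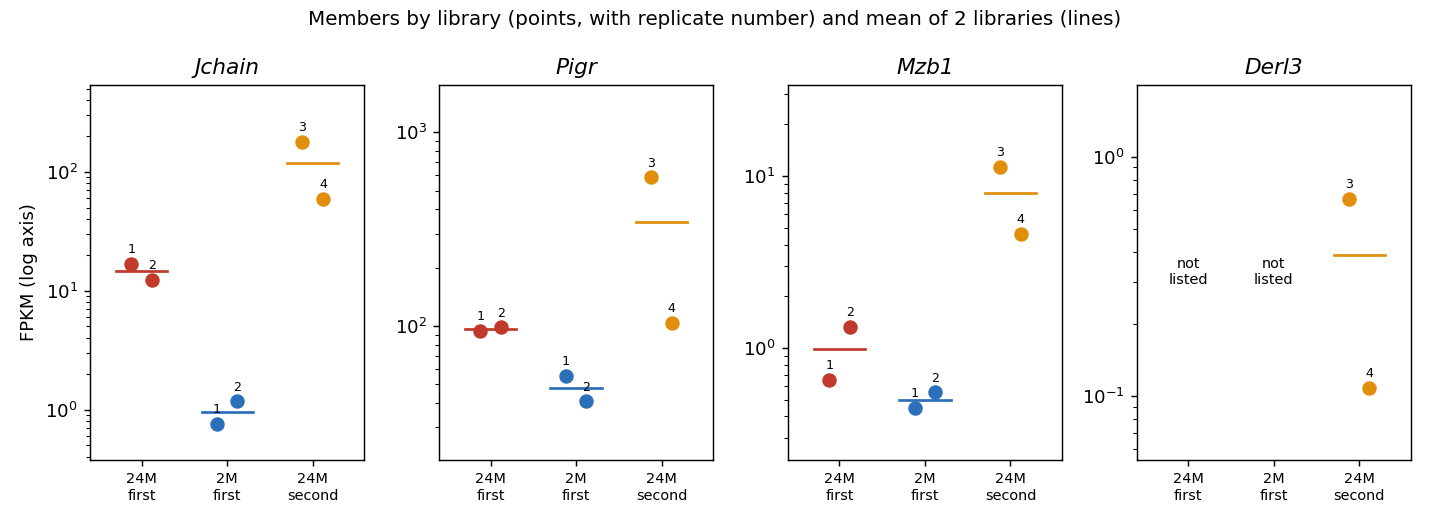
FPKM of Jchain, Pigr, Mzb1 and Derl3 in each library on log axes that differ between panels, with 24M and 2M of the first table and 24M of the second table from left to right; points are libraries with their replicate number, and lines are means of 2 libraries. Jchain was at 12.3 FPKM or more in every 24M library, against 1.17 FPKM or less in 2M, and 24M_3 was the highest library in each panel.

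On the log2(FPKM + 1) scale, which understates changes of low genes, the difference between 24M and 2M in the first table was 2.97 ± 0.18 for Jchain and 1.01 ± 0.15 for Pigr (SE of the limma fit over all genes), with 95% intervals of 2.52 to 3.42 and 0.62 to 1.40. For Mzb1, which was under 1 FPKM in 3 of its 4 libraries and did not pass the filter, it was 0.39 ± 0.18 in the fit without a filter, with an interval of -0.07 to 0.85. The Mzb1 difference was 0.14 without 24M_2 and 0.64 without 24M_1, so a single library set most of its size. The members were chosen by this contrast, so the intervals above are no test of a difference. The median over the 11437 genes tested was -0.02. All 3 members of the first table lay above both 2M libraries in 24M_1 and 24M_2, as did 20.4% of its 12666 genes. All 3 also lay above both 2M libraries in 24M_3 and 24M_4, as did 32.4% of the 12546 shared genes. These comparisons share their 2M libraries. The larger age mean is at least 0.501 FPKM for every gene of the first table, and the 2M mean of Mzb1 was 0.500 FPKM. Mzb1 is thus listed there through its 24M values, which favours its place in these counts. Of the 2 members tested, limma called 1, Jchain, higher in 24M, against 0.761% of genes called higher and 0.813% called lower, and nothing is read from that count because the members were chosen by this contrast.

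**Figure D2:**
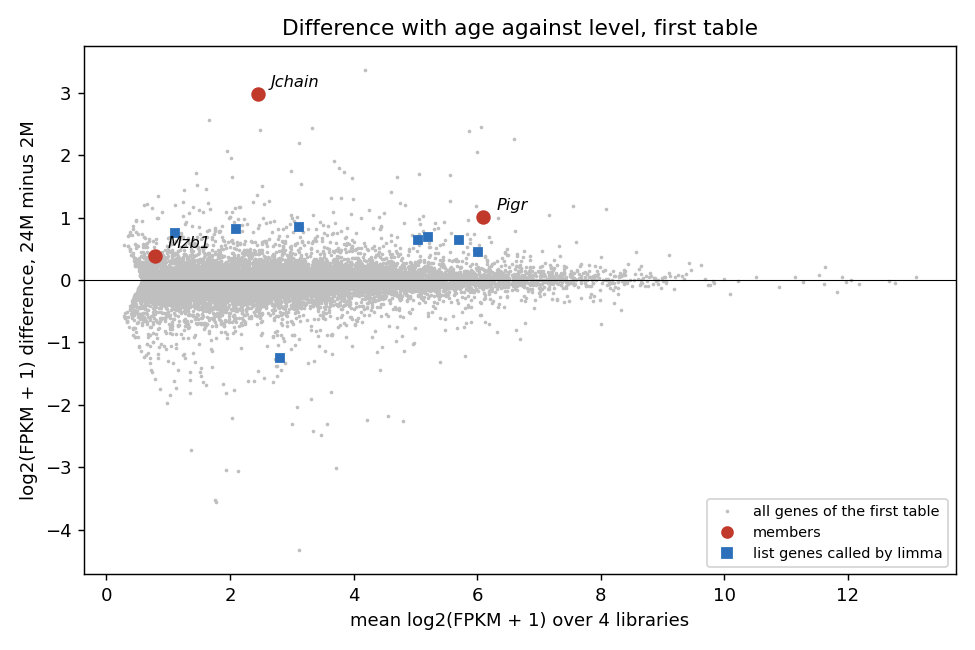
Difference in log2(FPKM + 1) between 24M and 2M against the mean over the 4 libraries of the first table, with all genes in grey, members in red and list genes called by limma in blue. Jchain lies at 2.97 and Pigr at 1.01, while Mzb1, at 0.39, lies among low genes with a wide spread.

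The markers of kidney cells and of other immune cells were read beside the members. All 10 kidney identity genes were listed in both tables, from the proximal tubule transporter Slc34a1 (399 and 373 FPKM in 24M_1 and 24M_2, 346 and 376 FPKM in 2M_1 and 2M_2) to the podocyte gene Nphs1. Of these 10, the thiazide-sensitive cotransporter Slc12a3 was called higher, at 74.5 and 74.2 FPKM in 24M and 56.3 and 52.4 FPKM in 2M (limma adjusted p = 0.0458). The other direction was seen, without a call, for Slc12a1 of the thick ascending limb, at 221 and 197 FPKM in 24M and 282 and 246 FPKM in 2M (limma adjusted p = 0.177), and for the collecting duct water channel Aqp2, at 29.5 and 48.5 FPKM in 24M and 71.2 and 59.9 FPKM in 2M (limma adjusted p = 0.300). Over shared genes, 24M_3 and 24M_4 differed from the mean of 24M_1 and 24M_2 by a median of 0.05 and -0.07 on the log2 scale, and 12.1% and 9.44% of genes stood at least 1 log2 unit apart. Libraries of different tables correlated at 0.894 to 0.939 across genes, which are not independent replicates, and 24M_3 with 24M_4 at 0.951.

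The other plasma cell and B cell markers that were listed gave little signal in the first table. Irf4, Tnfrsf17, Tnfrsf13b and Pou2af1, among others, are not listed there and could give none. Of 22 plasma cell markers, which include immunoglobulin genes, 7 were listed in the first table and 6 tested, and limma called none in either direction, with 0 of 6 at an unadjusted p below 0.05 and a median difference of -0.01. Their summed level, mostly Txndc5, was 25.1 and 25.0 FPKM in 24M_1 and 24M_2 and 25.2 and 22.5 FPKM in 2M_1 and 2M_2. The surface proteoglycan gene Sdc1, used as a plasma cell marker but also made by epithelia, was at 2.51 and 2.96 FPKM in 24M and 2.98 and 2.89 FPKM in 2M. Prdm1, the factor that drives plasma cell differentiation, was at 0.827 and 0.991 FPKM in 24M and 0.275 and 0.668 FPKM in 2M and did not pass the filter. Of 18 B cell markers, 4 were listed in the first table and none of the 3 tested was called, or had an unadjusted p below 0.05, with Cd79b, a signalling chain of the B cell receptor, at 0.556 and 0.316 FPKM in 24M and 0.275 and 0.849 FPKM in 2M. The summed B cell list, mostly Cd74 of antigen presentation, was 180 and 85.4 FPKM in 24M and 117 and 144 FPKM in 2M, so the ages overlapped. For comparison, 1933 of the 11437 genes tested had an unadjusted p below 0.05.

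In the second table more of these markers were listed, and most were higher in 24M_3. The B cell receptor chain Cd79a was at 5.19 FPKM in 24M_3 and 1.50 FPKM in 24M_4. Pou2af1, a B cell coactivator needed for germinal centres, was at 4.86 and 1.18 FPKM, and Irf4, a factor of plasma cell differentiation, at 1.76 and 0.321 FPKM. The survival receptor Tnfrsf17, known as BCMA, was at 0.531 and 0.191 FPKM, and the mature B cell gene Ms4a1 was lower still, at 0.197 and 0.104 FPKM. Of the B cell list, Fcer2a was listed at 0 in 24M_4 and at 0.011 FPKM in 24M_3, and it was the only one of 14 at 0. Jchain thus stood far above every plasma cell marker of the list. It did not stand above the antigen presentation gene Cd74 of the B cell list, at 1365 FPKM in 24M_3 and 193 FPKM in 24M_4.

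All 4 members listed in the second table were at least 2-fold higher in 24M_3 than in 24M_4, as were 12.7% of 13568 genes. The ratios were 3.01 for Jchain, 5.60 for Pigr, 2.45 for Mzb1 and 6.17 for Derl3. The same held for 18 of 18 listed T and NK cell markers, 15 of 17 macrophage and dendritic cell markers, 10 of 14 B cell markers, 8 of 12 plasma cell markers and 2 of 5 neutrophil markers. Summed over the genes in both tables, the macrophage and dendritic cell list was 879 FPKM in 24M_3 and 131 FPKM in 24M_4, with 88.0 and 88.1 FPKM in 24M_1 and 24M_2 and 67.7 and 76.5 FPKM in 2M_1 and 2M_2. The 6 shared T and NK cell markers summed to 100.4 FPKM in 24M_3 and 7.74 FPKM in 24M_4, with 5.08 and 8.53 FPKM in 24M_1 and 24M_2 and 4.18 and 4.15 FPKM in 2M_1 and 2M_2. In 24M_4 Gzmb and Marco were listed at 0. The 24M_3 level of each member thus came with high markers of several immune cell types, and their part in it was not tested. In 24M_4 the T and NK sum lay within the range of 24M_1 and 24M_2, while the macrophage and dendritic cell sum lay above both, as did the B cell sum at 197 FPKM, against 180 and 85.4 FPKM. The 7 shared plasma cell markers summed to 52.3 FPKM in 24M_3 and 16.8 FPKM in 24M_4. First-table sums were 25.1 and 25.0 FPKM in 24M and 25.2 and 22.5 FPKM in 2M, so the 24M_4 sum lay below all of them. Those sums were mostly Txndc5, which is also counted among the folding helpers below. Txndc5 was at 14.9 and 14.9 FPKM in 24M_1 and 24M_2 and 15.1 and 12.7 FPKM in 2M_1 and 2M_2. In the second table it was at 28.8 FPKM in 24M_3 and 6.58 FPKM in 24M_4. The low 24M_4 sum is thus not read as a low plasma cell signal.

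**Figure D3:**
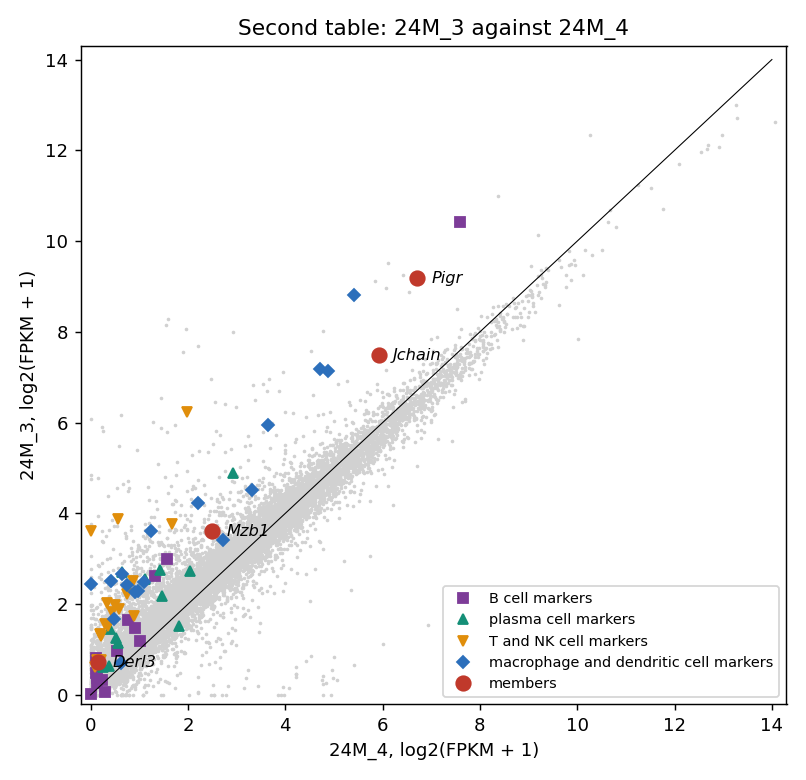
log2(FPKM + 1) of each gene of the second table in 24M_3 (vertical axis) against 24M_4 (horizontal axis), with all genes in grey, the diagonal of equal levels, members in red and marker lists by colour and shape. The members and most immune markers lie above the diagonal.

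Among helpers of antibody folding and secretion in the endoplasmic reticulum, Creld2, Manf and Dnajb9 were called higher in 24M of the first table. All 35 listed helpers were tested, 3 were higher and none lower, with a median difference of 0.10 against -0.02 over all genes, and 20 of the 35 lay above both 2M libraries in both 24M libraries, as did 20.4% of all genes of the table. Creld2, a stress-induced isomerase-like protein, was at 61.3 and 67.1 FPKM in 24M_1 and 24M_2 and 40.0 and 41.4 FPKM in 2M_1 and 2M_2 (log2 difference 0.64, limma adjusted p = 0.0270). Manf, a secreted stress protein, was at 38.0 and 42.3 FPKM in 24M and 25.9 and 24.6 FPKM in 2M (0.64, limma adjusted p = 0.0319). Dnajb9, a cochaperone, was at 41.8 and 50.2 FPKM in 24M and 28.0 and 28.4 FPKM in 2M (0.68, limma adjusted p = 0.0462). Kidney epithelium makes these proteins too. Xbp1, the transcription factor that drives the secretory programme of plasma cells, was at 52.4 and 75.0 FPKM in 24M and 49.9 and 41.7 FPKM in 2M and was not called. Across the separately normalized tables these helpers did not keep 1 order against 2M: Creld2 was at 31.9 FPKM in 24M_3 and 42.5 FPKM in 24M_4, Manf at 21.6 and 33.3 FPKM and Dnajb9 at 32.2 and 33.6 FPKM. Dnajb9 thus lay above both 2M libraries in both, and Creld2 and Manf lay above them in 24M_4 but below them in 24M_3.

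Genes that carry the receptor across the cell or are known to control Pigr were not called. Of 20 transcytosis genes, all tested, none was called and 2 had an unadjusted p below 0.05, with a median difference of -0.12 and 4 of 20 differences above 0, against 4999 of the 11437 genes tested. The recycling endosome adaptor Rab11fip1 was at 2.48 and 2.62 FPKM in 24M and 4.29 and 3.46 FPKM in 2M (limma adjusted p = 0.165). Rab25, a small GTPase of apical recycling, was at 2.91 and 3.55 FPKM in 24M and 4.88 and 3.98 FPKM in 2M (limma adjusted p = 0.267). Of 25 regulators of Pigr, 24 were tested and none was called, with 4 at an unadjusted p below 0.05 and a median of 0.05. Over all 11437 genes tested, 1933 had an unadjusted p below 0.05. The 4 regulators were Hnf4a, Myd88 and Nfkbiz, with higher values in 24M, and Traf3ip2, with lower values in 24M. Nfkbiz, an NF-kB cofactor, was at 2.50 and 3.46 FPKM in 24M and 1.76 and 2.07 FPKM in 2M (limma adjusted p = 0.240). Traf3ip2 was at 1.48 and 1.22 FPKM in 24M and 2.31 and 1.88 FPKM in 2M (limma adjusted p = 0.225). The interferon factor Irf1 was at 23.4 FPKM in 24M_3 but at 3.29 FPKM in 24M_4, below all libraries of the first table. Of 8 Fc receptor genes tested none was called and 2 had an unadjusted p below 0.05. Fcamr, the Fc receptor for IgA and IgM, was at 15.8 and 16.0 FPKM in 24M and 12.8 and 12.9 FPKM in 2M (limma adjusted p = 0.150), and at 1.22 and 6.36 FPKM in 24M_3 and 24M_4.

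Of the 31 genes that attract plasma cells or keep them alive, 13 were tested, 2 were called higher and none lower, with a median of 0.12. Cxcr4, the receptor that guides plasma cells to their niches and is made by many leukocytes, was at 1.87 and 1.72 FPKM in 24M and 0.601 and 0.711 FPKM in 2M (log2 difference 0.76, limma adjusted p = 0.0496). Cxcr4 reached 1 FPKM only in the 24M libraries of the first table. It passed the filter through the group where it was high, so its call is not read as support. Its ligand Cxcl12 was at 7.87 and 7.41 FPKM in 24M and 13.2 and 11.4 FPKM in 2M and was not called (limma adjusted p = 0.0545). Aldh1a1, which makes retinoic acid, a signal for gut homing of IgA cells, was at 4.97 and 4.43 FPKM in 24M and 2.25 and 2.24 FPKM in 2M (0.81, limma adjusted p = 0.0325). The mucosal chemokine Ccl28, a ligand for IgA plasma cells, was at 3.63 and 3.63 FPKM in 24M and 2.44 and 4.28 FPKM in 2M, which overlap. Of 11 tested epithelial defence genes, 1 was called lower and none higher: the membrane mucin Muc1, at 3.03 and 4.10 FPKM in 24M and 9.30 and 10.1 FPKM in 2M (-1.24, limma adjusted p = 0.0258). Muc1 was at 11.3 FPKM in 24M_3 and 5.21 FPKM in 24M_4 of the second table. Of 10 tested macrophage and dendritic cell markers, 1 was called higher, C1qa of complement C1q, at 10.9 and 10.4 FPKM in 24M and 5.29 and 5.64 FPKM in 2M (0.85, limma adjusted p = 0.0215). In that list 4 of 10 had an unadjusted p below 0.05, C1qa, C1qb, C1qc and Adgre1, all with higher values in 24M, and 9 of 10 differences were above 0. Over all 11437 genes tested, 1933 had an unadjusted p below 0.05 and 4999 differences were above 0. Neither the single T and NK cell marker tested nor the 2 neutrophil markers tested were called or had an unadjusted p below 0.05.

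**Figure D4:**
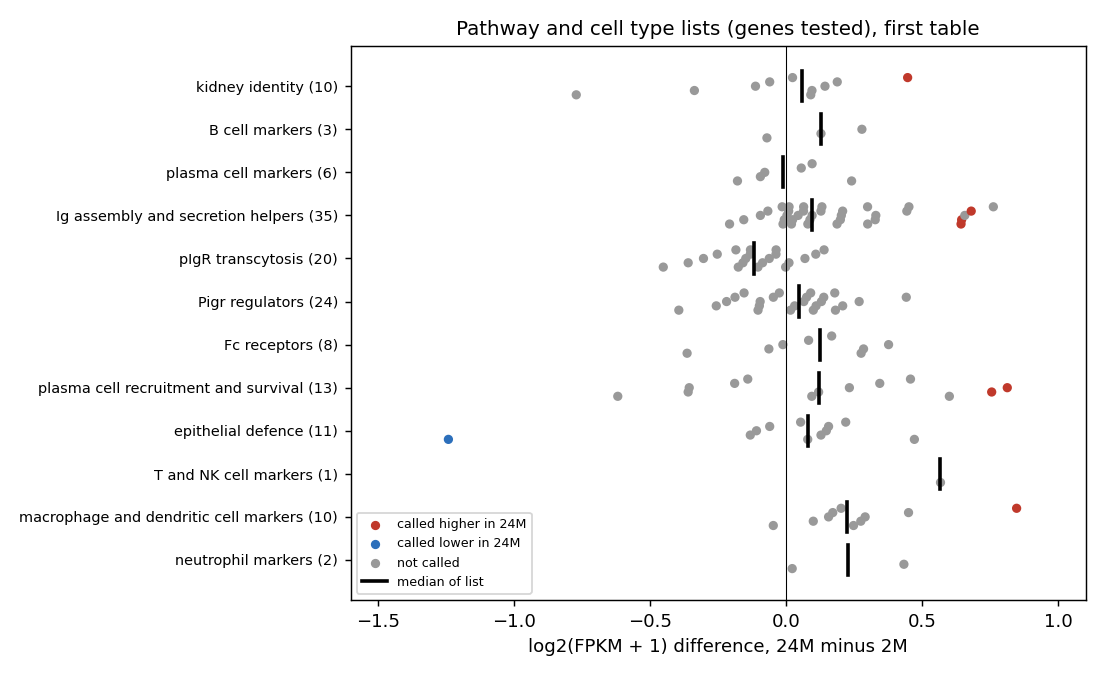
Difference in log2(FPKM + 1) between 24M and 2M of the first table for each tested gene of the 12 lists, with the number tested in brackets; colour marks genes called by limma and black bars are list medians. Helpers of immunoglobulin secretion hold 3 called genes and have a median of 0.10, and the transcytosis list has a median of -0.12.

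All 8 list calls were lost without 2M_1 and without 2M_2, in fits where the single remaining 2M library is taken to have the spread of the 24M libraries. Of the 8, Dnajb9 alone was still called without 24M_1, and Muc1 alone without 24M_2. Cxcr4 fell under the filter when either 24M library was left out.

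The gene with the pattern nearest to Jchain was Cyp2d12, a cytochrome P450. Likeness was the mean absolute gap, over the 4 24M libraries, between log2(FPKM + 1) less the 2M mean of the gene and of the member, among 11417 genes listed in both tables and past the filter. Cyp2d12 lay 1.34 log2 units from Jchain on average, followed by the amino acid transporter Slc7a12 at 1.84, an ID with no symbol at 2.05, the tubular injury gene Havcr1 at 2.06 and the monocyte chemokine Ccl2 at 2.30. No gene in this search thus came close, and genes that did not pass the filter, such as Slpi described below, were not searched. Jchain, a member selected on its difference, was 3.18 and 2.76 above its 2M mean in 24M_1 and 24M_2, 6.53 in 24M_3 and 4.95 in 24M_4. Pigr had nearer neighbours: Gm11127 at 0.35, the fatty acid hydroxylase Cyp4a14 at 0.39, the stress cytokine Gdf15 at 0.40, and the class II gene H2-Eb1 and the complement gene C1qc at 0.41 each. H2-Eb1 was at 609 FPKM in 24M_3 and 85.2 FPKM in 24M_4. Cyp2d12 and the H2 genes have close paralogs, and how shared reads were assigned is not stated, so their values are uncertain.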

How the data were processed

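Kidney RNA-seq libraries were compared from 2 gene tables. The deposited values are FPKM (fragments scaled by gene length and library size) computed by the authors, per the file headers. The genome build mm10 and the tools DESeq2 1.20.0, featureCounts 1.5.0-p3 and HISAT2 2.0.5 are named, without roles, per the submitters' processing notes. Neither the annotation nor the step behind the FPKM is stated there.

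Whole reads could not be recovered from low values by exon length (21.3% to 37.0% lay within 0.05 of a whole number), so depth is unknown and no counting interval can be given. Symbols were matched by Ensembl ID without version. Coordinates come from GENCODE M21 (GRCm38, the assembly of mm10).

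Differences with age were fitted within the first table only, in limma 3.58.1 under R 4.3.3, on log2(FPKM + 1) with age as the term, moderated variance with trend and robust options, and Benjamini-Hochberg FDR below 0.05 over 11437 genes, those that reached 1 FPKM in 2 or more libraries. The script was tested on simulated data. The members, the 12 gene lists and the tests were chosen with earlier results of these data known. Named list genes are those past the threshold and up to 4 more per list with the smallest p, and the text gives part of them. Likeness genes are the 5 nearest to Jchain and to Pigr. The other list genes named (Slc34a1, Nphs1, Prdm1, Cd79b, Xbp1, Irf1, Ccl28 and those of the second table alone, among others) were chosen after their values were seen, for their known role. Alternatives were a pseudocount of 0.1, no filter, quantile normalization, a replicate term, plain moderation, and each library left out. Some list genes are not reported here.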

Additional observations from a re-analysis of the deposited data

Results flagged for a closer look

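In 24M_3, Pigr, Cxcr4 and C1qa each stood apart from the other 24M libraries. The gap between 24M_3 and the nearest of the other three, as a share of the whole range of the 4 libraries, was 0.98 for Pigr, 0.846 for Cxcr4 and 0.888 for C1qa, each above Dixon's 95% critical value for 4 samples. Pigr was at 585 FPKM in 24M_3, against 104 FPKM or less in the other 24M libraries. The group spans 2 tables that were normalized separately. Of 11 results searched 3 stood out. The 11 were the 3 members and the 8 list genes called by limma, all picked with values of 24M_1 and 24M_2 known. The members were also selected with their 24M_3 and 24M_4 levels known, and the lists with earlier results of these data known. The usual chance rate of about 5% of groups does not hold for genes picked this way.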

How the results depend on the processing

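Between 24M and 2M, limma called 180 genes, and 137 with a pseudocount of 0.1, 169 without a filter, 155 after quantile normalization, 108 with plain moderation and 0 to 126 with 1 library left out. Without 2M_1 it called 0 genes (1215 at an unadjusted p below 0.05), and without 2M_2 0 genes (1452). Of the list genes 8 were called, 5 with a pseudocount of 0.1, 9 without a filter, 6 after quantile normalization, 4 with plain moderation and 0 to 2 with 1 library left out (18 and 32 at an unadjusted p below 0.05 where none was called). The cause was not tested. The replicate numbers share no stated source, and deviations of same-numbered libraries correlated at -0.06 across genes. With the replicate block 43 genes and 0 list genes were called (1654 genes and 30 list genes at an unadjusted p below 0.05). That fit had 1 residual degree of freedom. The count of members higher in 24M was 3 of 3 in each alternative, including 24M_4 alone, chosen after seeing the data; where groups do not overlap, leaving out a library cannot change it, so it says nothing about stability. With a pseudocount of 0.1 the difference was 3.79 for Jchain and 0.80 for Mzb1. Leaving out 1 library gave 2.76 to 3.18 for Jchain, 0.80 to 1.22 for Pigr and 0.14 to 0.64 for Mzb1. Depth is unknown, which limits the low values of Mzb1, Derl3 and Jchain in 2M.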

Other observations

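Slpi and Cxcl13 were named after their values were seen. Slpi, an antiprotease of epithelial secretions, was at 0.854 and 0.726 FPKM in 24M_1 and 24M_2, against 0.0302 FPKM in 2M_1 and a listed 0 in 2M_2. In the second table it was at 39.0 FPKM in 24M_3 and 15.0 FPKM in 24M_4. It did not pass the filter, and in the fit without a filter limma gave an adjusted p of 0.0453. Cxcl13, the chemokine that draws B cells into follicles, was at 1.31 and 0.851 FPKM in 24M_1 and 24M_2, against 0.159 FPKM in 2M_1 and a listed 0 in 2M_2. In the second table it was at 9.56 FPKM in 24M_3 and 1.32 FPKM in 24M_4, and in the fit without a filter limma gave an adjusted p of 0.0613. The larger age mean is at least 0.501 FPKM for every gene of the first table. Slpi and Cxcl13 are thus listed there only through their 24M values, and neither adjusted p is read as support.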
